A study of Mus musculus with 7 samples.

Results

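Antiviral interferon response genes are the transcripts that a cell switches on when type I interferon binds its receptor. A list of 55 such mouse genes, picked by symbol with earlier results of these data known, was looked up among the 55367 genes counted in spleen CD8+ T cells. All 55 symbols were found, and 51 reached the minimum for a test (5 counts per library on average), as did 12623 genes in all. The cells came from Foxp3 YFP/cre mice, a strain that marks regulatory T cells with a fluorescent protein, were sorted by flow cytometry, and were cultured for 48 hours with small extracellular vesicles (sEV) at 100 μg/ml. In 4 libraries the sEVs came from the spleens of healthy mice (HCME-sEVs), and in 3 libraries they came from spleens of Eμ-TCL1 mice with leukemia (LME-sEVs), in which a B-cell enhancer drives a TCL1 transgene and a B-cell leukemia resembling chronic lymphocytic leukemia grows. Both groups therefore received vesicles, and no culture without vesicles was analysed here. The study's methods describe CD8+ T cells isolated by negative selection and stimulated in culture with anti-CD3 and anti-CD28 antibodies and the cytokine IL2. Its results call the vesicle-treated CD8+ cells sorted. The labels give 1 dose for all 7 cultures, whereas the study's methods describe amounts matched to each kind of spleen. A legend of the study gives the sizes of the 2 groups the other way round, and the sample titles were followed here, so each direction rests on them. By the study's general methods the mice were young adults. It is not stated whether the libraries of a group came from separate animals, so the p-values below measure only the spread between these libraries.

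Type I interferons (interferon alpha and beta) signal through the receptor IFNAR1/IFNAR2 and the kinases JAK1 and TYK2. The signal ends in a complex of STAT proteins with IRF9 that binds the interferon-stimulated response element (ISRE) near the start of its target genes. The targets sense viral RNA and DNA, block viral entry, translation, replication and budding, or switch the signal off again. Interferon gamma, which activated CD8+ T cells secrete, uses another receptor and another DNA element (GAS) but induces many of the same genes. RNA from bulk cultures does not tell fewer expressing cells from less RNA in each cell.

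Promoter sequence near the start site was available for 42 of the 55 members (RefSeq, GRCm38.p6, 250 bases before to 50 bases after each start). The core of an ISRE was taken as GAAA, any 2 bases, and GAAA again, or its reverse complement, which begins and ends with TTTC. It was present in 17 of the 42 members (40.5%), and in 3.99% of the 27025 genes with such a window. The 4 stretches below run from 160 to 21 bases before the RefSeq start, 5′ to 3′ on the strand of the gene, and are shown because Isg15, Ifit3, Ifit1 and Bst2 were lower after LME-sEVs. Capitals mark the core.

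Ifit1: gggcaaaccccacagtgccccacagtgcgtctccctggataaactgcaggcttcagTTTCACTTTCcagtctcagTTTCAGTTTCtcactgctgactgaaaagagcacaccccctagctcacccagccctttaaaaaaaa
Ifit3: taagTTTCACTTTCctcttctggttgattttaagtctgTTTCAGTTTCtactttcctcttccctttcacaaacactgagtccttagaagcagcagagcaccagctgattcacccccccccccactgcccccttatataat
Isg15: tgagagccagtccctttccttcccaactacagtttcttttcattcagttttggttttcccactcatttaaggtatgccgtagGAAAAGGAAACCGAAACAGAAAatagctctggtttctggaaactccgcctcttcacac
Bst2: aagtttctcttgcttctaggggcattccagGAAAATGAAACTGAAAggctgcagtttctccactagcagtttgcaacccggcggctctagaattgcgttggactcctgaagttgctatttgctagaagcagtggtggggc

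The stretch of Ifit1 (chr19:34640729-34640868, plus strand) holds 2 separate cores that begin 104 and 85 bases before the start. That of Ifit3 (chr19:34583369-34583508, plus strand), in the same gene cluster, holds 2 separate cores as well, at 156 and 122 bases. Isg15 (chr4:156200839-156200978, minus strand) carries 3 overlapping cores in 1 run of 22 bases that begins 78 bases before the start, and Bst2 (chr8:71537493-71537632, minus strand) 2 overlapping cores in 16 bases that begin 130 bases before it. Ifitm3 and Trim30a, also lower after LME-sEVs, have cores that are not printed. Those of Ifitm3 begin 2 and 19 bases after the start. Trim30a has 1 core in each of 2 windows, 36 bases before and 2 bases after the start. Cmpk2, Lgals3bp, Ifi35 and Ifi47, lower as well, have no core in their windows. The cores are matches of letters and not measured binding.

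The 7 libraries held between 3689831 and 5030522 counts of distinct molecules, and values below are TMM-normalized CPM, which is the count divided by library size and a scaling factor. A level of 3 counts, the smallest taken as shown, was between 0.582 and 0.807 CPM, a limit that covers counting error only. Counts come from 3′ ends, so gene length does not enter. All 6 markers of CD8 T cells were present, with Cd8a between 341 and 376 CPM after HCME-sEVs and between 401 and 435 CPM after LME-sEVs, while Cd4 stayed at or under 0.582 CPM. Of the members called below, Usp18, Ifi35, Ifi47 and Rtp4 share exon bases with another annotated gene, so their counts are less certain.

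For the interferon response genes the 4 control libraries were spread out, with library 3 highest and library 1 lowest. In each library the level of a member was set against its mean over the 7 libraries on the log2 CPM scale. The median over the 51 tested members was 0.36 in HCME-sEV library 3, and -0.12, 0.00 and 0.14 in HCME-sEV libraries 1, 2 and 4. It was -0.06, -0.21 and -0.24 in LME-sEV libraries 1, 2 and 3. HCME-sEV library 1 thus lay between LME-sEV libraries 1 and 2, and the groups overlapped on this measure. The median over all tested genes was between 0.00 and 0.01 in every library. HCME-sEV library 3 was the highest of its group for 35 of the 51 members (68.6%, against 28.4% of all tested genes), and HCME-sEV library 1 the lowest for 34 (66.7%, against 26.8% of all tested genes). A call below that was lost or gained when a single library was left out is given with that library.

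**Figure D1:**
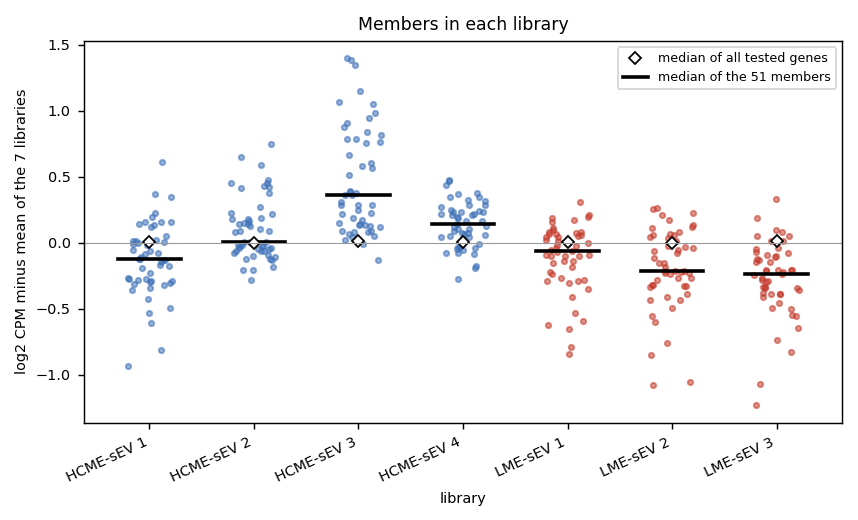
Each point is 1 of the 51 tested members in 1 library (x axis), placed by its log2 CPM minus its mean over the 7 libraries (y axis), with HCME-sEV libraries in blue, LME-sEV libraries in red, black bars at the members' median and diamonds at the median of all tested genes. The bar of HCME-sEV library 3 sits at 0.36, those of the other HCME-sEV libraries between -0.12 and 0.14, and those of the LME-sEV libraries between -0.24 and -0.06.

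Part of the antiviral program was lower in CD8+ T cells cultured with LME-sEVs than with HCME-sEVs. Because the list was chosen with earlier results of these data known, the shares of all tested genes below describe the background and are not an independent test. With p adjusted by Benjamini-Hochberg over all tested genes, edgeR's quasi-likelihood test called 13 of the 51 members lower at an FDR under 0.05, where 5.21% of all tested genes were lower, and 0 higher, where 3.75% of all tested genes were higher. At an unadjusted p under 0.05, 24 members were lower and 2 higher, where 12.3% and 10.4% of all tested genes were. DESeq2 called 12 members lower and 0 higher (4.45% and 2.60% of all tested genes), and limma-voom also 12 and 0 (4.98% and 3.66%). With scaling by library size only, 11 were lower and 2 higher, and the shares of all tested genes were 3.68% lower and 4.86% higher. The fold change was below 0 for 42 of the 51, with a median log2 fold change (LME-sEVs over HCME-sEVs) of -0.31 beside 0.01 for all tested genes, and a range from -1.54 for Isg15 to 0.28 for Epsti1.

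The calls depended on which libraries were kept. Without HCME-sEV library 3, 11 members were lower and 1 higher, beside 6.03% and 4.31% of all tested genes. In that fit 10 of the 13 calls remained, and the median moved to -0.22. Only 5 members were called without LME-sEV library 2, and 5 without LME-sEV library 3, all lower, and in these fits 1.76% and 2.0998% of all tested genes were called lower. The 4 members Isg15, Bst2, Ifitm3 and Lgals3bp had an FDR under 0.05 in all 16 alternative fits, the 7 that left out a library included.

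Changes past the fold of a differentially expressed gene (FDR under 0.05 and log2 fold change beyond 1) were made by 2 members, Isg15 and Ifit3, both lower, where 1.28% of all tested genes met this rule. That count was 1 without HCME-sEV library 3 (1.46% of all tested genes), 1 without LME-sEV library 2 (0.656%), and 5 without HCME-sEV library 1 (1.05%). All 3 LME-sEV libraries lay below all 4 HCME-sEV libraries for 16 members, where 10.8% of all tested genes did so, and above them for 1, Ly6e, where 9.49% of all tested genes did so. Without HCME-sEV library 1 there were 25 and 1 such members, beside 13.02% and 11.8% of all tested genes, and without LME-sEV library 1 there were 26 and 2, beside 14.9% and 15.3%.

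**Figure D2:**
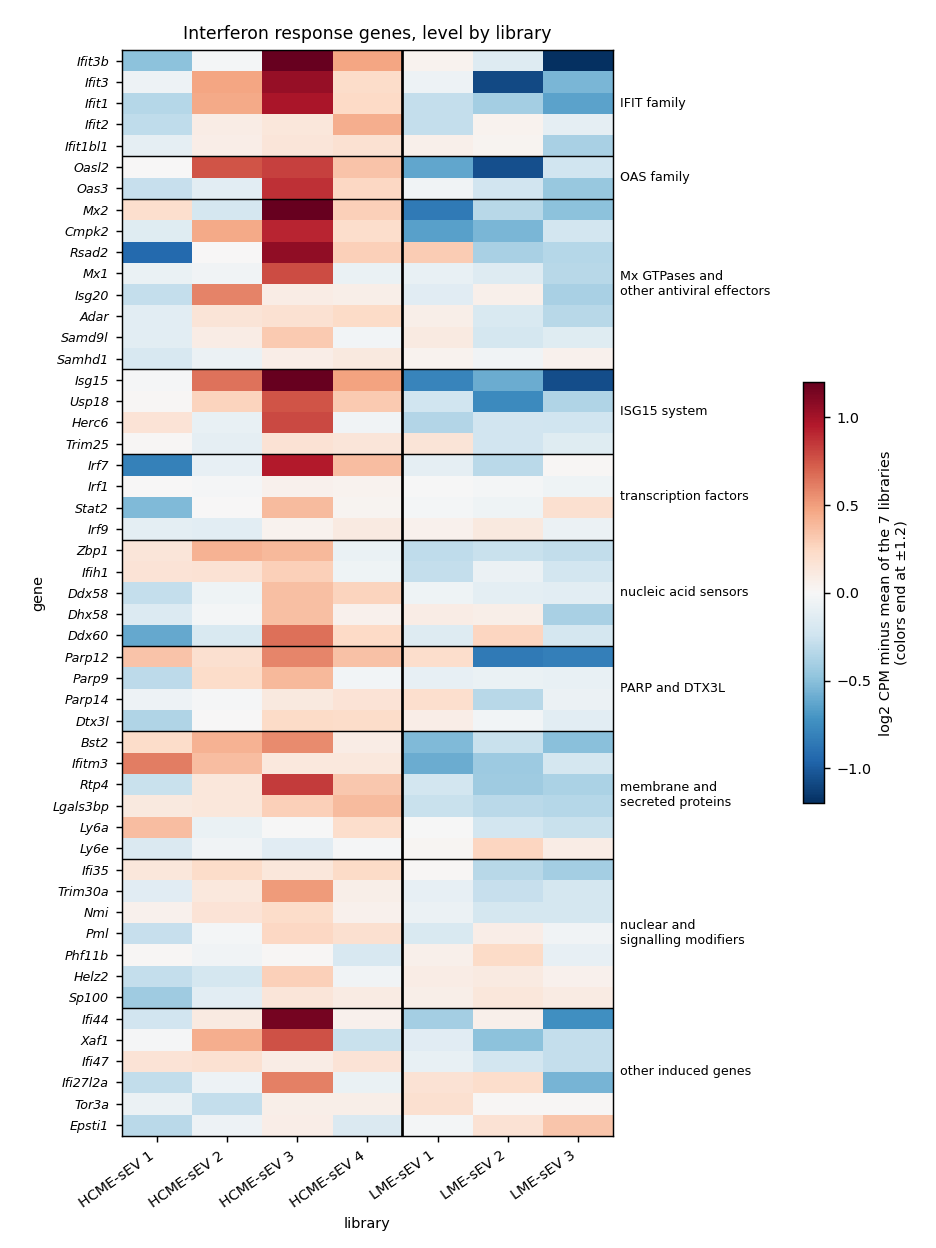
Rows are the 51 tested members grouped by role, columns are the 7 libraries, and the color is log2 CPM minus the mean of the 7 libraries (red above, blue below, colors ending at ±1.2). Isg15, Bst2 and Lgals3bp are blue in all 3 LME-sEV libraries, whereas Rsad2 and Irf7 are dark red in HCME-sEV library 3 and blue in HCME-sEV library 1.

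ISG15, a ubiquitin-like protein that is attached to other proteins and also secreted, had the lowest fold change of all members. Isg15 was at 17.3, 27.9, 45.3 and 24.7 CPM in HCME-sEV libraries 1 to 4, and at 9.95, 11.5 and 8.14 CPM in LME-sEV libraries 1 to 3. Every LME-sEV library was below every HCME-sEV library, and the highest value was that of HCME-sEV library 3. Its mean was 28.8 ± 11.9 CPM (SD, n = 4) against 9.85 ± 1.66 CPM (SD, n = 3), a 2.92-fold lower level (log2 fold change -1.54 ± 0.25 SE, edgeR FDR = 6.9e-04). Without HCME-sEV library 3 the log2 fold change was -1.25 (edgeR FDR = 3.3e-04).

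USP18 removes ISG15 from proteins and also dampens signaling at the interferon receptor. Usp18 was at 8.43, 10.1, 14.4 and 10.5 CPM after HCME-sEVs and at 6.995, 4.72 and 6.398 CPM after LME-sEVs, without overlap. It was lower by a log2 fold change of -0.84 ± 0.23 (SE, edgeR FDR = 0.0251), but the FDR passed 0.05 without HCME-sEV library 3 (0.0647), LME-sEV library 2 (0.148) or LME-sEV library 3 (0.0799). Of the other genes of this group, the ISG15 ligase gene Herc6 had a log2 fold change of -0.53 (edgeR FDR = 0.126) with groups that did not overlap, and Trim25, which encodes a ubiquitin and ISG15 ligase that acts on the RNA sensor RIG-I, had one of -0.13 (edgeR FDR = 0.497), from between 90.0 and 110 CPM to between 82.9 and 108 CPM. The ISG15 system thus had 2 of its 4 members lower, beside 5.21% of all tested genes. The same share stands beside the counts of each role below.

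**Figure D3:**
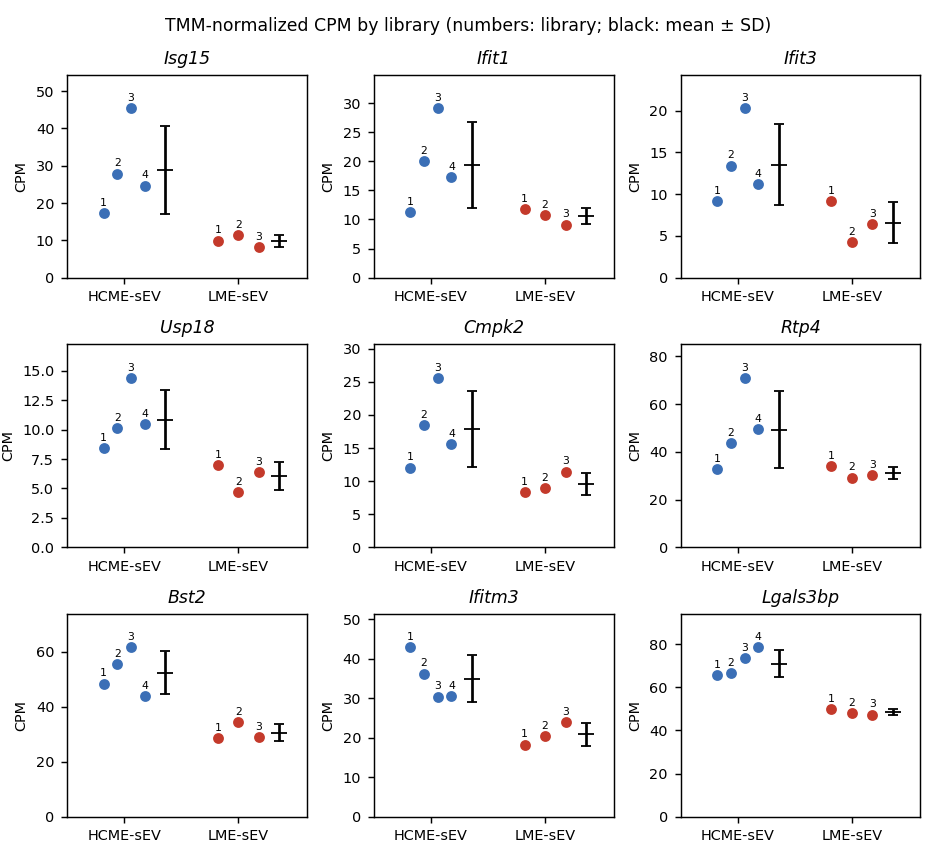
Each panel plots TMM-normalized CPM (y axis, from 0) of 1 gene in the 4 HCME-sEV (blue) and 3 LME-sEV (red) libraries, numbered by library, with the mean ± SD of each group in black. Isg15 runs from 17.3 to 45.3 CPM in HCME-sEV libraries and from 8.14 to 11.5 CPM in LME-sEV libraries, whereas the groups overlap for Ifit1 and Rtp4 at HCME-sEV library 1.

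The IFIT proteins bind viral RNA that lacks the cap marks of host RNA and keep it from being translated. Their 5 genes lie together on chromosome 19, all 5 had fold changes below 0, and 2 were called lower. Ifit3 was at 9.16, 13.4, 20.3 and 11.2 CPM after HCME-sEVs and at 9.15, 4.27 and 6.398 CPM after LME-sEVs. The groups did not overlap, but LME-sEV library 1 and HCME-sEV library 1 were almost equal. Ifit3 was lower by a log2 fold change of -1.04 ± 0.27 (SE, edgeR FDR = 0.0193), and the FDR passed 0.05 without LME-sEV library 2 (0.139) or LME-sEV library 3 (0.0854).

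Ifit1 was at 11.3, 20.02, 29.1 and 17.2 CPM after HCME-sEVs and at 11.8, 10.8 and 9.11 CPM after LME-sEVs. HCME-sEV library 1 lay within the LME-sEV range, so the groups overlapped. The log2 fold change of Ifit1 was -0.88 ± 0.23 (SE, edgeR FDR = 0.0229), a call lost without HCME-sEV library 2 (0.0554) or 3 (0.0557) and without LME-sEV library 2 (0.0892) or 3 (0.124), as well as in limma-voom (0.0509). Ifit3b was too low for a firm value, between 0.96 and 4.80 CPM after HCME-sEVs and between 0.39 and 1.61 CPM after LME-sEVs. Ifit2 and Ifit1bl1 had log2 fold changes of -0.23 (edgeR FDR = 0.515) and -0.17 (edgeR FDR = 0.461), and Ifit1bl1 lay between 30.6 and 37.7 CPM after HCME-sEVs and between 25.2 and 34.4 CPM after LME-sEVs.

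Active oligoadenylate synthetases make the messenger that activates RNase L on double-stranded RNA. Of the 6 listed genes of this family, all on chromosome 5, 4 were too low to test. Oas1g had 0 counts in every library, and Oas1a, Oas2 and Oasl1 reached at most 5, 4 and 4 counts. Oas3 was at 20.7, 23.1, 46.7 and 30.03 CPM after HCME-sEVs and at 24.5, 21.3 and 18.2 CPM after LME-sEVs. HCME-sEV library 1 was within the LME-sEV range and HCME-sEV library 3 far above the rest. The log2 fold change of Oas3 was -0.50 ± 0.21 (SE, edgeR FDR = 0.148), its FDR was 0.0305 without HCME-sEV library 1, and its log2 fold change was -0.22 without HCME-sEV library 3. Oasl2, of the same family, did not overlap between groups, at between 1.93 and 3.73 CPM against between 0.674 and 1.55 CPM (log2 fold change -1.36, edgeR FDR = 0.0636, and 0.0487 without HCME-sEV library 1).

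Among the Mx GTPases and other direct effectors, 1 of 8 was lower. This was Cmpk2, a mitochondrial nucleotide kinase gene next to Rsad2 on chromosome 12, at 12.0, 18.5, 25.6 and 15.6 CPM after HCME-sEVs and 8.34, 8.99 and 11.4 CPM after LME-sEVs. The groups did not overlap, by a small margin at HCME-sEV library 1. For Cmpk2 the log2 fold change was -0.87 ± 0.22 (SE, edgeR FDR = 0.0156), and the FDR passed 0.05 without LME-sEV library 1 (0.0628) or 2 (0.0884). Its neighbour Rsad2 encodes viperin, which makes a chain-terminating nucleotide, and was at 7.71, 15.2, 32.3 and 18.6 CPM against 18.8, 11.5 and 11.8 CPM. For Rsad2 HCME-sEV library 1 was the lowest and HCME-sEV library 3 the highest of the 7, and the log2 fold change of -0.40 (edgeR FDR = 0.460) became -0.01 without HCME-sEV library 3. The 2 genes thus differed in their calls, a difference that was not itself tested.

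The Mx genes encode dynamin-like GTPases that trap viral components. Mx1 was at 13.3, 13.7, 24.5 and 13.3 CPM after HCME-sEVs and at 13.2, 12.6 and 11.1 CPM after LME-sEVs. The groups did not overlap, but apart from HCME-sEV library 3 the control values were close to those of the LME-sEV libraries, and the log2 fold change of -0.40 (edgeR FDR = 0.267) became -0.14 without it. Mx2, annotated as a polymorphic pseudogene, lay between 1.52 and 5.60 CPM against between 0.807 and 1.35 CPM (log2 fold change -1.33, edgeR FDR = 0.109). Of the other effectors, Samhd1, which hydrolyses deoxynucleotides, was at 268, 292, 323 and 332 CPM against 315, 297 and 317 CPM, with the LME-sEV values inside the HCME-sEV range (log2 fold change 0.03, 95% interval from -0.14 to 0.20). The nuclease gene Isg20, the RNA editing gene Adar and Samd9l had log2 fold changes of -0.31, -0.27 and -0.15, none past the threshold.

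**Figure D4:**
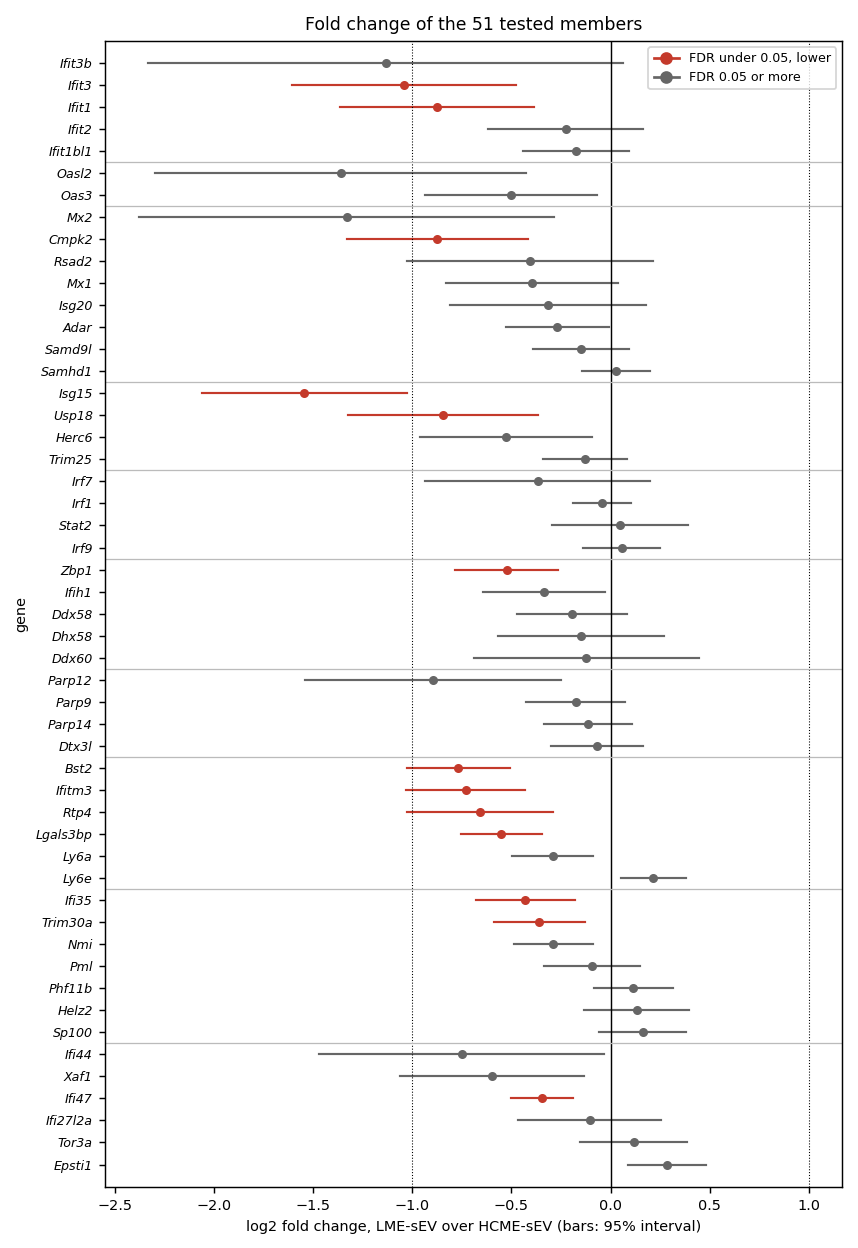
Points are log2 fold changes (x axis, LME-sEVs over HCME-sEVs) of the 51 tested members by role (y axis, in the order of the map of levels by library), bars are 95% intervals, red marks an FDR under 0.05, and dotted lines stand at -1 and 1. Isg15 is farthest to the left at -1.54, and the 4 transcription factor genes lie between -0.37 and 0.06.

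Of the transcription factor genes of the program, Irf1, Irf7, Irf9 and Stat2, 0 of 4 passed the threshold (0 also at an unadjusted p under 0.05), and their median log2 fold change was 0.00. Irf1, a factor shared by type I and type II interferon responses, was at 346, 341, 358 and 355 CPM after HCME-sEVs and at 344, 340 and 334 CPM after LME-sEVs, with overlap and little spread (log2 fold change -0.04, 95% interval from -0.19 to 0.10). Irf9 and Stat2, parts of the complex that binds the ISRE, had log2 fold changes of 0.06 (95% interval from -0.14 to 0.25) and 0.05 (95% interval from -0.29 to 0.39). Irf7, the interferon-induced factor that amplifies the response, was at 7.23, 12.2, 25.6 and 17.0 CPM against 12.1, 10.3 and 13.2 CPM. Like Rsad2 it was lowest in HCME-sEV library 1 and highest in HCME-sEV library 3, and its log2 fold change of -0.37 (edgeR FDR = 0.461) became -0.03 without the latter.

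Of the 5 nucleic acid sensors, 1 was lower. Zbp1, which recognises Z-form nucleic acid and can start cell death, was at 42.9, 51.9, 50.9 and 36.6 CPM after HCME-sEVs and at 31.2, 32.1 and 31.4 CPM after LME-sEVs. The groups did not overlap and the LME-sEV values differed little among themselves. For Zbp1 the log2 fold change was -0.52 ± 0.12 (SE, edgeR FDR = 0.0119), with an FDR of 0.0566 and 0.0585 without LME-sEV library 2 or 3. The RNA sensor genes Ddx58 (RIG-I) and Ifih1 (MDA5) had log2 fold changes of -0.19 (edgeR FDR = 0.418) and -0.34 (edgeR FDR = 0.171). Ddx58 was at 33.0, 39.0, 52.0 and 48.9 CPM against 39.0, 37.3 and 37.0 CPM, inside the HCME-sEV range. Their relatives Dhx58 (LGP2) and Ddx60 had log2 fold changes of -0.15 and -0.12.

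The PARP and DTX3L genes, whose products ADP-ribosylate or ubiquitinate proteins in the interferon response, had 0 of 4 members past the threshold. Dtx3l was at 127, 164, 191 and 190 CPM against 173, 159 and 149 CPM, and HCME-sEV library 1 was the lowest (log2 fold change -0.07, edgeR FDR = 0.782). Parp12, whose groups overlapped, had the lowest fold change of the 4, -0.89 ± 0.31 (SE, edgeR FDR = 0.0777), from between 5.58 and 7.47 CPM to 5.65, 2.47 and 2.52 CPM in LME-sEV libraries 1 to 3. Without LME-sEV library 1, Parp12 was at -1.34 (edgeR FDR = 0.0183). Parp9 and Dtx3l share exon bases on opposite strands, and whether counting used strand is not given in the sources used here.

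The membrane and secreted proteins held the most calls of any group, 4 of 6, beside 5.21% of all tested genes called lower. Over all tested genes that share differed with level, from 1.90% under 10 CPM to 10.3% above 50 CPM. BST2 (tetherin) holds budding virus particles at the cell surface. Bst2 was at 48.4, 55.5, 61.6 and 44.0 CPM after HCME-sEVs and at 28.5, 34.4 and 29.1 CPM after LME-sEVs. The groups were well apart, in log2 terms by -0.77 ± 0.13 (SE, edgeR FDR = 8.0e-04), or 1.70-fold.

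IFITM3 blocks the fusion of virus with endosomes. Ifitm3 was at 42.9, 36.2, 30.4 and 30.5 CPM after HCME-sEVs and at 18.3, 20.5 and 24.0 CPM after LME-sEVs. Here HCME-sEV library 1 was the highest and library 3 the lowest of its group, and the groups did not overlap. The log2 fold change of Ifitm3 was -0.73 ± 0.14 (SE, edgeR FDR = 0.00344), and without HCME-sEV library 3 it was -0.79.

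Lgals3bp encodes a secreted glycoprotein that binds galectins and the extracellular matrix. It was at 65.5, 66.4, 73.6 and 78.5 CPM after HCME-sEVs and at 50.04, 48.1 and 47.3 CPM after LME-sEVs, with a gap wider than the spread of either group. Its log2 fold change was -0.55 ± 0.10 (SE, edgeR FDR = 0.00153). Rtp4, a chaperone of membrane receptors, was at 32.8, 43.6, 71.0 and 49.6 CPM against 33.9, 29.2 and 30.2 CPM. The groups overlapped at HCME-sEV library 1, and the log2 fold change of Rtp4, -0.66 ± 0.18 (SE, edgeR FDR = 0.0230), was -0.44 without HCME-sEV library 3. Its FDR passed 0.05 without HCME-sEV library 4 (0.0592), LME-sEV library 2 (0.121) or LME-sEV library 3 (0.0991).

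The LY6 genes, for small lipid-anchored surface proteins that also serve as T-cell activation markers, went in opposite directions without passing the threshold. Ly6a (Sca-1) was at 812, 596, 626 and 729 CPM against 630, 540 and 524 CPM, with overlap (log2 fold change -0.29, edgeR FDR = 0.0661). Its FDR was 0.0483 without LME-sEV library 1, 0.0445 without HCME-sEV library 2 and 0.0327 without HCME-sEV library 3. Ly6e was at 358, 392, 369 and 402 CPM against 411, 485 and 429 CPM, without overlap and with the LME-sEV libraries higher (log2 fold change 0.22, edgeR FDR = 0.0934).

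Among the nuclear and signaling modifiers, 2 of 7 were lower. Ifi35 was at 39.5, 42.1, 39.5 and 42.4 CPM after HCME-sEVs and at 36.3, 28.5 and 26.95 CPM after LME-sEVs, without overlap, and LME-sEV library 1 was the nearest to the controls. Ifi35 was lower by a log2 fold change of -0.43 ± 0.12 (SE, edgeR FDR = 0.0277), and its FDR passed 0.05 without HCME-sEV library 2 (0.0732) or 4 (0.0680), without LME-sEV library 2 (0.140) or 3 (0.173), and in DESeq2 (0.0512) or with library size only (0.0515). Its binding partner Nmi had a log2 fold change of -0.29 (edgeR FDR = 0.0634) with groups that did not overlap.

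Trim30a, which restrains Toll-like receptor signaling, was at 262, 315, 411 and 303 CPM against 269, 237 and 249 CPM. HCME-sEV library 1 lay within the LME-sEV range. Trim30a had a log2 fold change of -0.36 ± 0.11 (SE, edgeR FDR = 0.0454), and the call was the least secure of the 13: it stood in 5 of the 16 alternative fits, and among fits with 1 library left out only in the one without HCME-sEV library 1 (0.00373), with FDR between 0.0627 and 0.205 in the others. Pml and Sp100, which form PML nuclear bodies, had log2 fold changes of -0.09 and 0.16, and Helz2 and Phf11b had 0.13 and 0.12, with no call.

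The remaining induced genes had 1 of 6 lower. Ifi47, an immunity-related GTPase gene, was at 344, 348, 328 and 345 CPM after HCME-sEVs and at 289, 265 and 252 CPM after LME-sEVs. The groups were clearly apart and HCME-sEV library 3 was the lowest control. Ifi47 was lower by a log2 fold change of -0.35 ± 0.08 (SE, edgeR FDR = 0.00648), with an FDR of 0.0656 without LME-sEV library 3. The annotation places exons of Olfr56 on the same strand and of Gm12188 on the opposite strand within it. Epsti1 was at 235, 282, 310 and 260 CPM against 290, 332 and 369 CPM, with overlap at HCME-sEV library 3 (log2 fold change 0.28, edgeR FDR = 0.0669, and 0.0175 without that library or 0.0341 without LME-sEV library 1). Xaf1 and Ifi44 had log2 fold changes of -0.60 and -0.75, and Ifi27l2a and Tor3a of -0.11 and 0.12, all without a call, and Xaf1 was called without HCME-sEV library 4 (edgeR FDR = 0.0407).

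The fold changes of the members shrank when HCME-sEV library 3 was left out: 36 of 51 came nearer to 0. This library was the highest control for 35 of the 51, so for those members the upward shift follows from the choice of library. Leaving out HCME-sEV library 1, the lowest control for 34, moved the members' median to -0.35. That fit called 15 lower and 0 higher, beside 4.37% and 3.22% of all tested genes. Among members without a call, Ifit3b went from -1.13 to -0.59, Mx2 from -1.33 to -0.83, Ifi44 from -0.75 to -0.35 and Herc6 from -0.53 to -0.29, and Ddx60 and Ifi27l2a turned to 0.13 and 0.12. The calls of Ifit1, Usp18 and Trim30a were lost and those of Ly6a (lower) and Epsti1 (higher) gained. Of the 13 members called lower, HCME-sEV library 3 was the highest control for 8, and of the 38 that were not called, for 27. The 5 called members with another library on top were Zbp1 and Ifi47 (HCME-sEV library 2), Ifitm3 (library 1), and Lgals3bp and Ifi35 (library 4). Measured against single controls, the LME-sEV libraries were all below HCME-sEV library 3 for 44 members, library 4 for 34, library 2 for 27 and library 1 for 20, where the share of all tested genes lay between 30.3% and 32.6%.

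**Figure D5:**
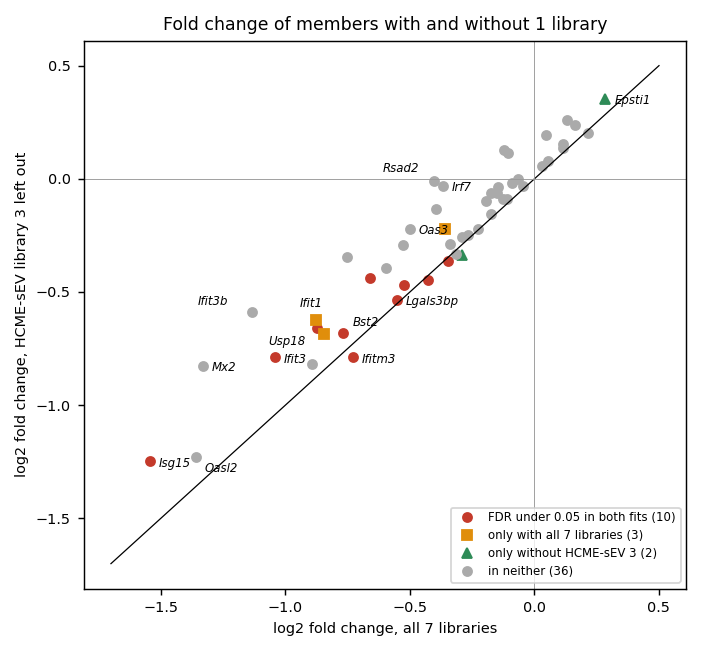
Each point is 1 of the 51 tested members, with its log2 fold change (LME-sEVs over HCME-sEVs) from all 7 libraries on the x axis and without HCME-sEV library 3 on the y axis, and the line marks equal values. Of the points, 10 were called in both fits, 3 with all 7 libraries only, 2 without the library only and 36 in neither, and Isg15 stays farthest down at -1.25.

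The level of a gene bore on what could be called. The 8 tested members with a mean under 10 CPM all had fold changes below 0, with a median log2 fold change of -0.87, but a median SE of 0.33 and 1 call. The 24 members between 10 and 50 CPM had a median of -0.42 and 9 calls, and the 19 above 50 CPM a median of -0.11 and 3 calls. Over all tested genes the medians of these bands were 0.11, 0.02 and -0.05, and the shares called lower 1.90%, 3.98% and 10.3%. The largest differences of the members thus stood among genes of low or middle level.

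Genes above and beside the program were examined in a second list of 46, of which 30 were tested. Of these, 5 were lower and 2 higher by edgeR's quasi-likelihood test, beside the 5.21% and 3.75% of all tested genes, so that the count of higher genes was near the background. The 14 listed genes of type I and type III interferons, Ifnb1 and 9 Ifna genes among them, had 0 counts in every library, which allows up to 0.807 CPM in the shallowest. The one ligand measured was Ifng, the type II interferon, at 574, 543, 584 and 428 CPM after HCME-sEVs and at 333, 405 and 475 CPM after LME-sEVs. The groups overlapped at HCME-sEV library 4 and LME-sEV library 3. The log2 fold change of Ifng was -0.39 ± 0.11 (SE, edgeR FDR = 0.0288), and the FDR passed 0.05 without HCME-sEV library 2 (0.0765) or 3 (0.0526) and without LME-sEV library 1 (0.177) or 2 (0.118), as well as with library size only (0.0528).

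All 7 genes of receptors and receptor kinases had fold changes above 0, and 1 of them was higher. Ifngr1, the ligand-binding chain of the interferon gamma receptor, was at 272, 310, 371 and 303 CPM against 369, 400 and 409 CPM, with overlap only at HCME-sEV library 3 (log2 fold change 0.32, edgeR FDR = 0.0274). Its FDR was between 0.0708 and 0.133 without HCME-sEV library 2 or 4 or LME-sEV library 2 or 3. The type I receptor genes Ifnar1 and Ifnar2 had log2 fold changes of 0.20 (95% interval from -0.10 to 0.50) and 0.23 (95% interval from 0.00 to 0.46, edgeR FDR = 0.215), and Ifngr2 of 0.17.

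Of the feedback inhibitors, Socs1, which blocks JAK kinases, was at 64.8, 110, 93.9 and 91.0 CPM after HCME-sEVs and at 52.7, 62.5 and 59.1 CPM after LME-sEVs, without overlap. It was lower by a log2 fold change of -0.62 ± 0.13 (SE, edgeR FDR = 0.00529) and was called in all 16 alternative fits. Irf2, a factor that competes with IRF1 for the same element, was higher, at 115, 129, 139 and 133 CPM against 150, 162 and 174 CPM (log2 fold change 0.33, edgeR FDR = 0.0196), with an FDR of 0.0534, 0.0810 and 0.133 without HCME-sEV library 2, LME-sEV library 2 and LME-sEV library 3.

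Of the sensing genes outside the members, Tlr7, a receptor for single-stranded RNA, was at 4.82, 8.36, 6.94 and 6.98 CPM against 3.77, 2.02 and 1.75 CPM, without overlap. Its log2 fold change was -1.47 ± 0.33 (SE, edgeR FDR = 0.00743), with an FDR of 0.0558 and 0.0649 without LME-sEV library 2 or 3. Sting1, the adaptor of DNA sensing, and Eif2ak2, which encodes the RNA-activated kinase PKR, had log2 fold changes of -0.29 (edgeR FDR = 0.0471) and -0.45 (edgeR FDR = 0.0479). Both calls were near the threshold: Sting1 kept it in 3 of 16 alternative fits and Eif2ak2 in 5, with FDR of 0.192 and 0.248 without LME-sEV library 2.

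The 17 members with an ISRE core in their window were not all lower. Of the 15 that were tested, 13 had fold changes below 0 and 6 were called lower, with a median log2 fold change of -0.40. Of the 24 tested members with a window and no core, 19 were below 0 and 4 called, with a median of -0.28. Over all tested genes with a window, 8.99% of the 367 with a core and 5.19% of the 8880 without one were called lower. A GAS-like core, TTC, any 3 bases and GAA, was in 9 of the 42 members (21.4%, against 9.55% of all genes), and the tested members with and without it had medians of -0.29 and -0.35.

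Some markers of other cells moved beside these results, and their part in them was not tested. The summed level of 5 B-cell markers was between 230 and 270 CPM after HCME-sEVs and between 311 and 338 CPM after LME-sEVs. Almost all of it was Ighm, at between 220 and 263 CPM against between 299 and 325 CPM, while Cd79a was at 0 in 6 of the 7 libraries. Ighm and Igkc were called higher, with log2 fold changes of 0.38 (edgeR FDR = 0.00430) and 1.06 (edgeR FDR = 0.0158). Cd79b and Ms4a1 had no call, with log2 fold changes of 0.17 (edgeR FDR = 0.828) and -0.38 (edgeR FDR = 0.742). The 6 CD8 T-cell markers summed to between 1575 and 1799 CPM against between 1840 and 2131 CPM. The 5 myeloid markers, all too low to test, summed to between 0.800 and 2.65 CPM against between 3.10 and 3.77 CPM. Of these, Itgam had 0, 0, 0 and 1 counts against 6, 8 and 6. The means of Lyz2 were 0.556 and 0.907 CPM, of Csf1r 0.664 and 0.663, of Adgre1 0.118 and 0.154, and of Cd14 0.190 and 0.0897. Of 4 markers of plasmacytoid dendritic cells, the main producers of type I interferon, Klk1 was at 0 in every library. Siglech was at 1 count in 2 libraries. The sum was between 6.02 and 9.88 CPM against between 5.38 and 6.07 CPM, and came almost only from Ccr9 and Cox6a2. Ccr9 was at between 4.58 and 7.60 CPM against between 2.69 and 5.17 CPM. Cox6a2 was at between 1.45 and 2.79 CPM against between 0.674 and 2.69 CPM. The 2 NK-cell markers stayed at or under 1.93 CPM. Basophil and mast cell markers summed to 5.54, 34.7, 23.7 and 13.04 CPM in HCME-sEV libraries 1 to 4 and to between 25.01 and 36.9 CPM in the LME-sEV libraries. Of these, Prss34 and Mcpt8 were called higher, with log2 fold changes of 1.72 (edgeR FDR = 0.0153) and 1.43 (edgeR FDR = 0.0341), while Cpa3 had one of -0.26 (edgeR FDR = 0.721).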

How the data were processed

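The authors deposited whole-number counts per gene symbol for 7 libraries of mouse CD8+ T cells (QuantSeq 3′ kit with molecular identifiers). Per the labels and the study's methods they used cutadapt 2.10, STAR 2.5.3a on GRCm38, UMI-tools 1.0.0 and featureCounts of Subread 2.0.0. The annotation release and the strand setting are not given in the sources used here. Because identifiers collapse PCR copies, a count stands for a captured molecule, and because reads lie at 3′ ends, a level also rests on where that end is annotated.

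Groups came from the sample titles. Genes averaging 5 or more counts were tested with edgeR 4.0.16 in R 4.3.3 (TMM, glmQLFit and glmQLFTest, no covariate), with Benjamini-Hochberg adjustment over all 12623 genes. SE is the absolute log2 fold change divided by the root of F, log2 CPM used a prior count of 2, and intervals are at 95%. Promoter windows came from RefSeq and gene positions from GENCODE on GRCm38, and a search of the last 300 bases of transcripts with blast 2.17.0 found no member with a copy at 95% identity over 200 bases. Figures used matplotlib 3.10.9.

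The members, the pathway list and the marker lists were chosen with earlier results of these data known. Genes described with full values were all members past the threshold, the member with the highest mean CPM in each role, and the pathway genes past the threshold with the interferon receptor genes; others singled out were chosen after their values were seen. Alternatives were DESeq2's size factors, upper-quartile factors or library size only, other filters, DESeq2 1.42.0, limma-voom (limma 3.58.1), the replicate number as a block, and leaving out each library. Of the listed markers, 1 is not reported here.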

Additional observations from a re-analysis of the deposited data

Results flagged for a closer look

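Dixon's ratio of gap to range was taken over the 4 HCME-sEV libraries for 62 results, single genes and the members' median by library. In 2 of the 62, both single genes, 1 library was far from the others, past the 95% critical value. Chance alone passes that value in about 5 of 100 groups. The members' median did not pass it, so on that measure this ratio set no control library apart. For Mx1 the ratio was 0.962, with HCME-sEV library 3 at 24.5 CPM and the next at 13.7 CPM. For Ifi44 it was 0.838, with the same library at 12.0 CPM and the next at 5.58 CPM. This ratio was not applied to the LME-sEV group, which has 3 libraries.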

How the results depend on the processing

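All 8 alternatives of scaling, filter and test other than the block and left-out libraries gave between 12 and 17 called members. In these fits between 2.44% and 6.13% of all tested genes were called lower and between 1.99% and 5.04% higher. The median log2 fold change of members stayed between -0.31 and -0.27. With scaling by library size only, 11 members were lower and 2 higher (Epsti1 and Ly6e), beside 3.68% and 4.86% of all tested genes. In that fit 1 member passed the fold of a differentially expressed gene (1.29% of all tested genes) and 4 pathway genes were called, as the median of all tested genes moved to 0.06. With 1 library left out, the called members ranged from 5 to 15, those past the fold from 1 to 5, those without overlap from 18 to 28, the pathway calls from 1 to 6, and the members' median from -0.37 to -0.22. The shares of all tested genes moved as well. Called lower were between 1.76% and 6.03%, called higher between 1.33% and 4.31%, and past the fold between 0.656% and 1.46%. Without overlap were between 12.6% and 15.0% lower and between 11.6% and 15.3% higher. The log2 fold change of Samhd1 then lay between -0.0285, without HCME-sEV library 1, and 0.0749. Leaving out a library also lowers the number of samples in the test, and the cause of these shifts was otherwise not tested.

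Libraries that share a number were not shown to be paired. Their deviations from the group means correlated at 0.07, 0.15 and 0.03 for numbers 1, 2 and 3. Between libraries of unlike number the correlations lay between -0.21 and 0.08. LME-sEV library 2 correlated best with its own number. LME-sEV library 1 correlated best with HCME-sEV library 3 (0.08), and LME-sEV library 3 with HCME-sEV library 2 (0.07). With the replicate number as a block over 6 libraries, 17 members were lower and 2 higher (19 in all), beside 6.77% and 4.69% of all tested genes. The same 6 libraries without the block gave 11, beside 4.36% and 2.90%. With the block the log2 fold change of Dtx3l turned to 0.00674. At this depth members under 10 CPM had SEs too large for most differences to be called, and DESeq2 gave no adjusted p for 3 members.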
